A study of Arabidopsis thaliana with 6 samples.

Results

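Systemic acquired resistance genes were followed here as 7 of the 33189 rows of the gene table, chosen by identifier: ALD1 (AT2G13810), FMO1 (AT1G19250), SARD1 (AT1G73805), CBP60g (AT5G26920), LURP1 (AT2G14560), DMR6 (AT5G24530) and NIMIN1 (AT1G02450). The data were RNA-seq of 7-day Arabidopsis thaliana seedlings of the Col ecotype. One group was wild type, called Col (n = 3 libraries), and the other carried tsk-4, a mutant allele of TONSOKU (TSK), a nuclear protein of DNA repair during replication (n = 3 libraries). No pathogen, elicitor or other treatment is named in the labels for either group. What the allele changes in TSK is not given in the labels. Nor is it said that the replicates were grown apart, so the p-values speak only of the spread among these 6 libraries, which may be technical.

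Systemic acquired resistance is a state of raised defence in the whole plant after a local infection. Lysine is turned by the aminotransferase ALD1 and a reductase into pipecolic acid, which the monooxygenase FMO1 converts to N-hydroxypipecolic acid, the signal that sets off resistance in distant leaves. The related transcription factors SARD1 and CBP60g switch on the genes of this route and of salicylic acid (SA) synthesis. SA acts through NPR1, to which NIMIN1 binds as an inhibitor of PR1 expression. DMR6 is an SA hydroxylase that lowers SA and is itself induced in infection, and LURP1 is needed for full defence against downy mildew.

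The 3 genes at which reads were more numerous in every tsk-4 library than in every Col library were LURP1, SARD1 and FMO1, and their upstream sequences are shown for this reason. Each is the 250 bases before the annotated gene start, read 5′ to 3′ on the gene's strand from TAIR10.1, and capitals mark the motifs searched on both strands. The motifs were TTGAC, the core bound by WRKY factors, TGACG, the core bound by TGA factors that work with NPR1, and GAAATT, the core of the sequence bound by SARD1 and CBP60g. The window of LURP1 is chr2:6213367-6213616, plus strand, that of SARD1 is chr1:27749249-27749498, minus strand, and that of FMO1 is chr1:6653196-6653445, minus strand.
LURP1: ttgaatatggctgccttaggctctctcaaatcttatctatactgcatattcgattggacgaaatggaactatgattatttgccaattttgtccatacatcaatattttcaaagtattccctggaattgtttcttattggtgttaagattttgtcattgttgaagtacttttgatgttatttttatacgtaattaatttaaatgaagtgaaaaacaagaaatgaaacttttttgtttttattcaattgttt
SARD1: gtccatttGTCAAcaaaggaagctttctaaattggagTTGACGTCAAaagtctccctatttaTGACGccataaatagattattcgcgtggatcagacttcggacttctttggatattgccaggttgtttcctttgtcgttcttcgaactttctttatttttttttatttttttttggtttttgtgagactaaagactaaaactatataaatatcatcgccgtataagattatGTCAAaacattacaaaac
FMO1: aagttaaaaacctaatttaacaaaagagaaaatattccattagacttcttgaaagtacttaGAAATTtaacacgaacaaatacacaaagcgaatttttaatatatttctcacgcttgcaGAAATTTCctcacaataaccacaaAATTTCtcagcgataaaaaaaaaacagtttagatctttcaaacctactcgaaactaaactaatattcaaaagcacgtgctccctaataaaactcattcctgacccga

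The upstream sequences differed in motif content. SARD1 held 4 TTGAC and 3 TGACG matches and no GAAATT. Of these, 2 TTGAC and 2 TGACG matches share letters in 1 palindromic run that begins 213 bases before the start. FMO1 held 4 GAAATT matches, 2 of them overlapping, ALD1 held 2 that overlap and NIMIN1 held 1. No match of any of the 3 motifs was found in this window of LURP1, CBP60g or DMR6. Over 27443 protein-coding genes of the nuclear chromosomes, windows of the same length held TTGAC in 44.9%, TGACG in 18.6% and GAAATT in 32.2%. Among the 7 genes TTGAC and TGACG were found in 1 each and GAAATT in 3. A match is a description of letters and not a binding site.

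The libraries held 13726929 to 14946295 reads in the gene table, and 1 read in a gene of 1 kb was worth 0.149 to 0.164 TPM, a unit that divides reads by gene length and scales each library to the same sum. The target gene TSK fell (limma adjusted p = 0.00097), from 3.73, 3.35 and 3.78 TPM in the Col libraries to 0.831, 0.959 and 0.918 TPM in the mutant. The seedling label was checked with tissue markers. The 3 leaf markers LHCB1.1, LHCB1.2 and RBCS1A summed to 44174 to 45158 TPM in Col and 33781 to 34129 in tsk-4, and all 3 fell. The 4 root markers summed to 96.2 to 97.0 and 115 to 132 TPM, and PRP3 and EXPA18 rose. The seed markers summed to 37.3 to 110.3 and 37.2 to 84.4 TPM, and none of the tested members was called (limma, 0 with an unadjusted p under 0.05, and 0 called on recovered reads). In bulk RNA of seedlings fewer cells of a type and less RNA per cell cannot be told apart, and the part of tissue composition in the results below was not tested.

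LURP1 rose in tsk-4, SARD1 was higher by the tests that could reach it, and DMR6 and CBP60g showed no detected change. The main test was limma on log2(TPM + 0.5) over the 19574 genes with at least 1 TPM in at least 3 libraries, with an adjusted p under 0.05 as the call. LURP1, CBP60g and DMR6 passed this filter, and LURP1 passed it through its tsk-4 libraries alone. The other 4 had too few reads. Of the 3 tested, 1 was called higher and 0 lower, where 14.9% and 4.96% of all tested genes were called higher and lower. Over all genes 2912 were called higher and 971 lower, a split that was 1815 and 1605 with median-ratio scaling and 1704 and 1660 with quantile normalization. No member had an unadjusted p under 0.05 in the downward direction by limma. All 7 could be tested with limma-voom on the whole reads recovered from the TPM values, which called 2 members higher, LURP1 and SARD1, and 0 lower, against 9.67% and 9.03% of 21646 genes. There 1 member, ALD1, had an unadjusted p under 0.05 downward.

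**Figure D1:**
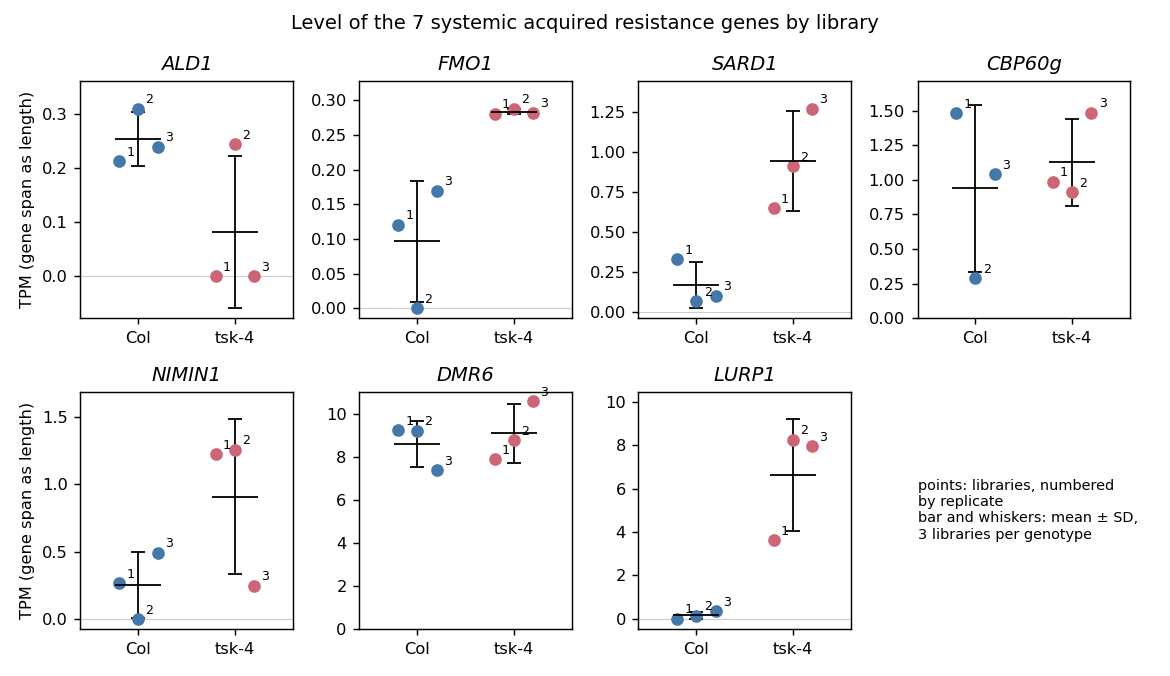
TPM of the 7 genes in each of the 6 libraries, on a linear scale that differs between panels; points are libraries numbered by replicate, and bars with whiskers are the mean ± SD of 3 libraries. LURP1 lies between 3.63 and 8.25 TPM in tsk-4 and at or below 0.331 TPM in Col, while DMR6 overlaps between genotypes.

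The pipecolate enzymes were near the limit of detection. ALD1 measured 0.213, 0.310 and 0.239 TPM in Col 1, 2 and 3 and 0, 0.244 and 0 TPM in tsk-4 1, 2 and 3. Behind these stood 5, 8 and 6 Col reads and 0, 6 and 0 mutant reads, so the genotypes overlapped and only tsk-4 2 held any reads in the mutant. Relative to all reads of the gene table the ratio of tsk-4 over Col was 0.308, with an exact 95% counting interval of 0.101 to 0.803 that covers counting error only. The exact two-sided permutation p over the 6 libraries was 0.3, where 0.1 is the smallest that 3 against 3 can give. limma-voom gave a log2 change of -2.65 ± 0.94 (SE) and an adjusted p of 0.063. In fits added after seeing the data, leaving out tsk-4 2 gave 0.012, but that removes the only mutant library with ALD1 reads. Leaving out any other library gave limma-voom adjusted p-values of 0.061 to 0.23.

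FMO1 (chromosome 1, 6650476 to 6653195) was covered by 2, 0 and 3 reads in Col 1, 2 and 3, and by 5 in each tsk-4 library. In TPM these were 0.121, 0 and 0.169 against 0.281, 0.288 and 0.282, so every tsk-4 library lay above every Col library. The ratio of reads was 2.93 (95% counting interval 1.01 to 10.3) and the exact permutation p 0.1, the smallest possible. limma-voom did not call FMO1 (log2 change 1.66 ± 0.83, adjusted p = 0.19). A complete separation of this kind, with tsk-4 above, was found for 3 of the 7 members and for 25.5% of genes with at least 10 reads, and separation with tsk-4 below for 0 members and 10.4% of genes.

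Of the related transcription factors, SARD1 was called higher on recovered reads and CBP60g was not called. SARD1 (chromosome 1, 27744790 to 27749248) measured 0.331, 0.0670 and 0.103 TPM in Col 1, 2 and 3 and 0.650, 0.914 and 1.27 TPM in tsk-4 1, 2 and 3. These were 9, 2 and 3 reads against 19, 26 and 37, and all tsk-4 libraries lay above all Col libraries. The ratio of reads was 5.72 (95% counting interval 3.22 to 10.9), and limma-voom gave a log2 change of 2.54 ± 0.59 with an adjusted p of 0.0072. limma without a filter also called SARD1 (log2 change 1.11 ± 0.24, adjusted p = 0.021), where 11.0% of genes were called higher and 3.39% lower. The call on reads held with each library left out in turn, with adjusted p-values of 0.0056 to 0.046, the highest without Col 2. SARD1 overlaps GIP2 (AT1G73790) on the other strand over 640 bases, 14.4% of its span, and GIP2 itself was covered by 1 read, from tsk-4.

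CBP60g (chromosome 5, 9475679 to 9478777) measured 1.48, 0.289 and 1.04 TPM in Col and 0.985, 0.910 and 1.49 TPM in tsk-4, in order of replicate. Col 1 and tsk-4 3 were alike and Col 2 was the lowest, so the genotypes overlapped. The log2 change was 0.26 ± 0.38 (limma adjusted p = 0.68) and the ratio of reads 1.21 (95% counting interval 0.833 to 1.75). Without Col 2 the limma log2 change was -0.12, so its sign rested on that library. Whether SARD1 and CBP60g differ in their change was not tested.

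The restraining genes were not called, DMR6 by limma and NIMIN1, which was under the main filter, by limma-voom. DMR6 (chromosome 5, 8378759 to 8383401), the most abundant of the 7, measured 9.23, 9.20 and 7.37 TPM in Col and 7.89, 8.77 and 10.6 TPM in tsk-4. The lowest and the highest of the 6 values lay in different genotypes, with full overlap between. The log2 change was 0.07 ± 0.14 (limma adjusted p = 0.77), with a sign that turned to -0.01 under median-ratio scaling and -0.03 under quantile normalization. Its 770 and 820 reads gave a ratio of 1.04 (95% counting interval 0.941 to 1.15). NIMIN1 (chromosome 1, 497917 to 498539) was covered by 1, 0 and 2 Col reads and by 5, 5 and 1 mutant reads, or 0.263, 0 and 0.493 against 1.23, 1.26 and 0.246 TPM. The tsk-4 1 and 2 values were high and that of tsk-4 3 lay within the Col range. The ratio was 3.58 (95% counting interval 0.945 to 19.98), the exact permutation p 0.3 and the limma-voom adjusted p 0.35, which left no difference that these few reads could show.

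LURP1 (chromosome 2, 6213617 to 6215932) was nearly silent in Col. It measured 0, 0.129 and 0.331 TPM in Col 1, 2 and 3 and 3.63, 8.25 and 7.95 TPM in tsk-4 1, 2 and 3. In reads these were 0, 2 and 5 against 55, 122 and 120, with tsk-4 1 at less than the other mutant libraries. The ratio was 41.4 (95% counting interval 19.8 to 104). limma gave a log2 change of 3.40 ± 0.35 (adjusted p = 0.00028), limma-voom 5.48 ± 1.07 (adjusted p = 0.0021) and limma without a filter an adjusted p of 0.00080. The size of the log2 change depended on the pseudocount, being 4.88 with 0.1 TPM and 2.66 with 1 TPM, since the Col level lies under the pseudocount.

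**Figure D2:**
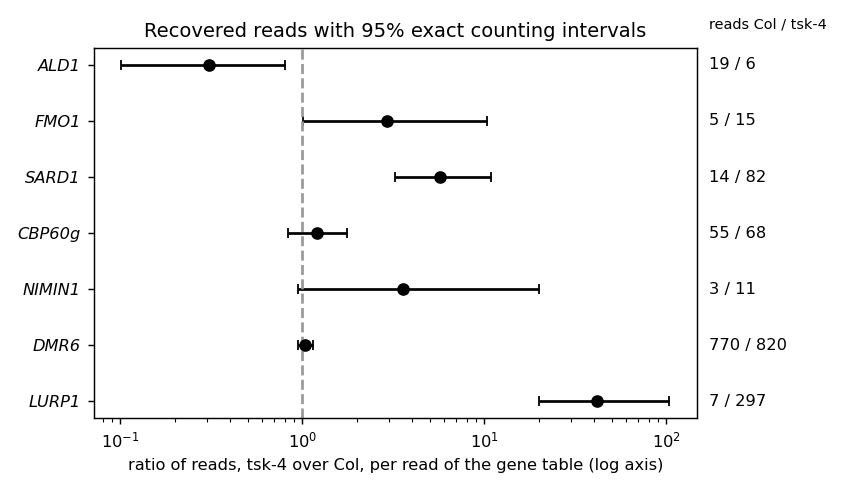
Ratio of recovered reads in tsk-4 over Col for each gene, per read of the gene table, on a log axis with exact 95% counting intervals; the summed reads of 3 Col and 3 tsk-4 libraries stand at the right. The intervals of LURP1 (19.8 to 104), SARD1 (3.22 to 10.9) and FMO1 (1.01 to 10.3) lie above 1. That of ALD1 (0.101 to 0.803) lies below, and those of DMR6, CBP60g and NIMIN1 include 1.

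The order of the 7 genes by level differed between genotypes. In Col the mean TPM per span length ran from DMR6 (8.60 ± 1.06) over CBP60g (0.937 ± 0.603), ALD1 (0.254 ± 0.0503), NIMIN1 (0.252 ± 0.247), SARD1 (0.167 ± 0.143) and LURP1 (0.153 ± 0.167) to FMO1 (0.0967 ± 0.0872; SD, n = 3). Only the step from DMR6 to CBP60g exceeded the ranges over libraries, and every other pair of neighbours overlapped. In tsk-4 the order was DMR6 (9.08 ± 1.37), LURP1 (6.61 ± 2.59), CBP60g (1.13 ± 0.313), SARD1 (0.946 ± 0.313), NIMIN1 (0.910 ± 0.575), FMO1 (0.284 ± 0.0039) and ALD1 (0.0814 ± 0.141). There the steps from LURP1 to CBP60g and from FMO1 to ALD1 exceeded the ranges, and the others overlapped. The span used as length includes introns, which lowers the level of genes with many of them, such as ALD1 with 10 exons against NIMIN1 with 1.

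The closest relatives by protein sequence were not called by limma where they could be tested, and those of LURP1, FMO1 and DMR6 had too few reads for a test. LURP1 is most like AT1G33840 (67.5% identity over 200 aligned residues), which had 0 TPM in every Col library and a mutant mean of 0.0309 ± 0.0535 TPM (SD, n = 3). FMO1 is most like AT5G45180 (74.1% over 499 residues) and DMR6 most like AT4G10490 (54.0% over 328 residues), both listed at 0 in all 6 libraries. ALD1 is most like AGD2 (62.7% over 410 residues), an aminotransferase of lysine synthesis, which measured 110 ± 9.0 and 119 ± 4.87 TPM (limma adjusted p = 0.30). The closest relative of SARD1 was AT5G57580 (45.3% over 382 residues; adjusted p = 0.56), that of CBP60g was AT4G25800 (37.9% over 377 residues; adjusted p = 0.54) and that of NIMIN1 was AT4G01895 (41.4% over 116 residues; adjusted p = 0.80). These adjusted p-values are from limma. The highest identity between coding sequences was 86.1% over 560 bases, between LURP1 and AT1G33840.

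The other genes of SA and pipecolate metabolism stayed mostly within the spread. Of 13 listed genes 12 were tested, 1 rose and 1 fell, and the median log2 change was 0.07 against 0.08 over all tested genes. The shares over all tested genes were 14.9% called higher and 4.96% called lower. PBS3, which joins glutamate to isochorismate on the way to SA, rose from 0.492 ± 0.140 to 1.44 ± 0.225 TPM (SD, n = 3; limma adjusted p = 0.044). It passed the filter through tsk-4 alone, and without it 0 of 11 tested genes were called higher, with a median log2 change of 0.02. Of the 10 alternatives that tested it 3 kept the call, among them limma-voom (adjusted p = 0.012). The call was lost with median-ratio scaling (0.059), a pseudocount of 0.1 TPM (0.054), quantile normalization (0.094) and the replicate block (0.091). It was also lost without Col 1 (0.072), Col 2 (0.12) or Col 3 (0.057). UGT76B1, a glucosyltransferase acting on N-hydroxypipecolic acid and SA, fell from 23.5 ± 2.80 to 16.4 ± 1.89 TPM (adjusted p = 0.017), or 0.053 without Col 1 and 0.055 without tsk-4 1. The core steps, named for their place in the route and not by the naming rule, were not called. SARD4, the reductase after ALD1, measured 13.0 ± 3.60 and 18.5 ± 3.53 TPM (adjusted p = 0.097). ICS1, the isochorismate synthase that starts SA synthesis, measured 10.2 ± 0.911 and 12.2 ± 1.2 TPM (adjusted p = 0.16), and EDS5, the exporter of isochorismate from the plastid, 9.38 ± 1.70 and 9.22 ± 0.699 TPM (adjusted p = 0.97).

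Mobile signals and priming factors moved in both directions. Of 11 listed genes 9 were tested, 4 rose and 1 fell, with a median log2 change of 0.49. Without AED1, a choice made after seeing the values, 3 of 8 were called higher and the median was 0.35. Among all tested genes 14.9% were called higher and 4.96% lower. GLI1, the glycerol kinase that makes glycerol-3-phosphate, rose from 64.1 ± 4.79 to 141 ± 6.72 TPM (limma adjusted p = 2.2e-05). AED1, an apoplastic protease induced by SA signalling, measured 0.317, 0.289 and 0.742 TPM in Col and 5.02, 10.8 and 7.49 TPM in tsk-4 (log2 change 3.09 ± 0.30, adjusted p = 0.00022), and passed the filter through tsk-4 alone. LLP1, a legume lectin-like protein of systemic signalling, rose from 25.1 ± 2.63 to 35.5 ± 3.67 TPM (adjusted p = 0.012, and 0.053 without tsk-4 3). The lipid transfer protein AZI1, the last of the called genes and outside the naming rule, rose from 35.9 ± 10.7 to 64.2 ± 10.9 TPM (adjusted p = 0.014). Without Col 2 its adjusted p was 0.059, and without tsk-4 2 it was 0.051. DIR1-LIKE (AT5G48490), a relative of the lipid transfer protein DIR1, fell from 153 ± 18.7 to 83.5 ± 21.0 TPM (adjusted p = 0.0080). DIR1 itself and LECRK-VI.2 were listed at 0 in all libraries, and other annotated genes overlap 100% and 98.5% of their spans.

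Receptors and regulators of SA signalling, both upstream of SA and downstream of it, were mostly not called. Of 24 listed genes 23 were tested, 2 rose and 1 fell, with a median log2 change of 0.06. That stands beside 14.9% called higher and 4.96% called lower over all tested genes. WRKY70, a transcription factor induced by SA, measured 7.29, 5.31 and 4.33 TPM in Col and 14.9, 11.1 and 16.8 TPM in tsk-4, without overlap (limma adjusted p = 0.0029, and called under all 14 alternatives). ADR1, a helper immune receptor, rose from 7.31 ± 0.866 to 10.9 ± 1.94 TPM (adjusted p = 0.035). Its call was kept under 7 of 14 alternatives. It was lost with median-ratio scaling (adjusted p = 0.078), with quantile normalization (0.088) and with no filter (0.061). It was also lost without Col 1 (0.11), Col 2 (0.059), tsk-4 2 (0.11) or tsk-4 3 (0.10). CBP60a, a calmodulin-binding relative of CBP60g that restrains immunity, fell from 22.1 ± 1.98 to 17.0 ± 0.916 TPM (adjusted p = 0.025). The call was lost without Col 1, Col 2, tsk-4 2 or tsk-4 3, with adjusted p-values of 0.064 to 0.091. NPR1 measured 16.7 ± 1.58 and 15.6 ± 1.29 TPM (adjusted p = 0.55), and the immune regulators EDS1 and PAD4 had log2 changes of 0.29 ± 0.10 and 0.29 ± 0.13 (adjusted p = 0.081 and 0.15), these 3 being named for their role.

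Among SA-responsive targets several genes rose. Of 13 listed genes 10 were tested, 6 rose and 0 fell (0 with an unadjusted p under 0.05 downward by limma, and 0 called lower by limma-voom), with a median log2 change of 2.27. Over all tested genes 14.9% were called higher and 4.96% lower, and this list was chosen with earlier results of these data known. PR1, PR2 and AIG1 passed the filter through tsk-4 alone, so the count and the median over tested genes lean upward by selection. Without these, a choice made after seeing the values, 3 of 7 tested targets were called higher and the median log2 change was 0.58. ACD6, a membrane protein that promotes SA defence, measured 1.14, 1.81 and 2.53 TPM in Col and 12.0, 12.9 and 12.3 TPM in tsk-4 (log2 change 2.51 ± 0.21, limma adjusted p = 9.0e-05). The wall-associated kinase WAK1 rose from 4.16 ± 0.966 to 18.4 ± 2.75 TPM (adjusted p = 0.00011), and PCC1, a small defence peptide under clock control, from 1.58 ± 0.874 to 10.7 ± 0.301 TPM (adjusted p = 0.00028). For PR2, a beta-glucanase secreted in defence, Col held 1 read and tsk-4 305, which gave 298 as the ratio (95% counting interval 53.0 to 11795; adjusted p = 0.00010).

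PR1 and AIG1 complete the 6 called targets; these and PNP-A and PR5 were chosen after their values were seen. AIG1, a GTP-binding protein induced by bacteria, rose from 3 to 159 reads, the ratio being 51.7 (95% counting interval 17.4 to 253; limma adjusted p = 0.00071). PR1, the standard marker of SA signalling, rose from 6 to 127 reads, the ratio being 20.7 (interval 9.23 to 57.3; adjusted p = 0.0068). PNP-A, a secreted peptide below the filter, was without reads in Col and had 37 in tsk-4. With 3 reads taken as the floor for Col as a group, the ratio was 12.0. The exact 95% counting interval of the ratio begins lower, at 9.31 (limma-voom adjusted p = 0.0086). PR5, another classic marker, measured 6.0 ± 1.96 and 6.5 ± 2.01 TPM (adjusted p = 0.80).

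**Figure D3:**
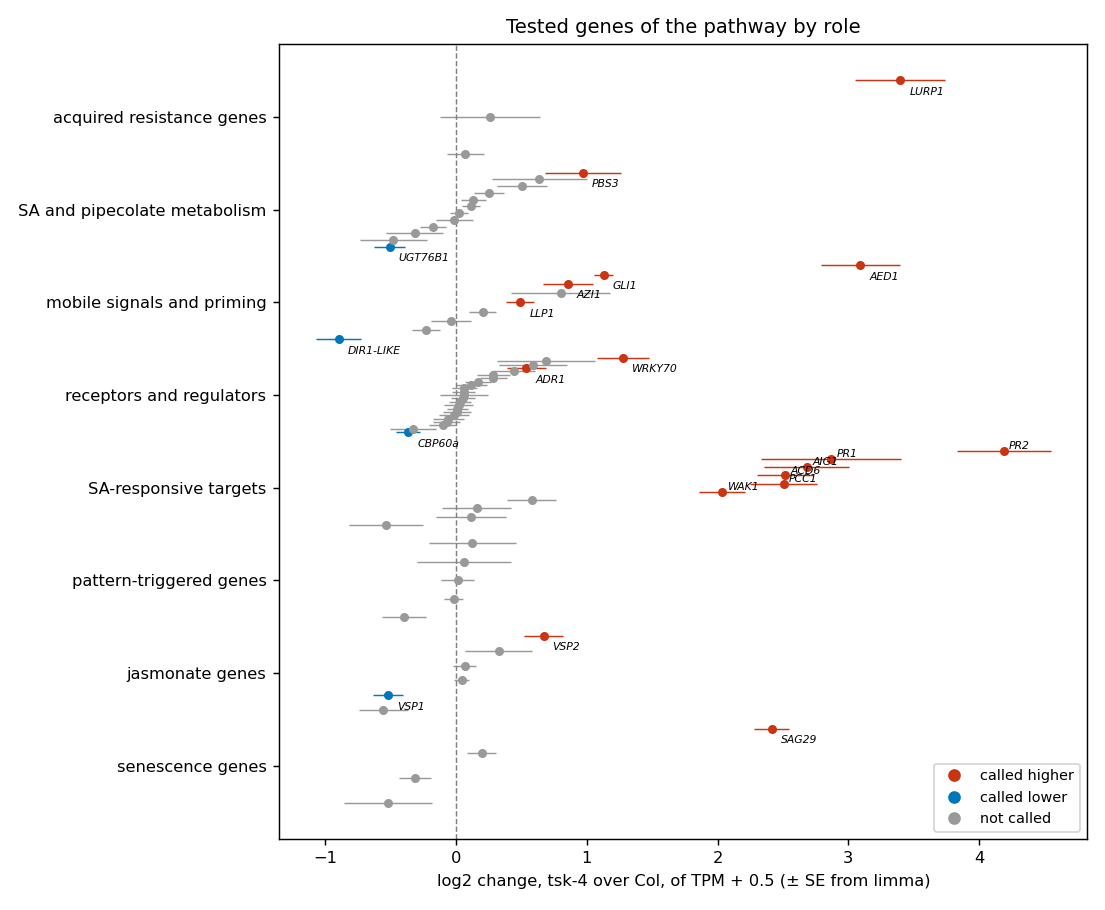
Log2 change of TPM + 0.5 in tsk-4 over Col for tested genes, grouped by role, with standard errors from limma; coloured points passed an adjusted p under 0.05. Of the SA-responsive targets 6 of 10 were called higher, or 3 of 7 without PR1, PR2 and AIG1, which passed the filter through tsk-4 alone. Of receptors and regulators 20 of 23 were not called, and of metabolic genes 10 of 12. Over all tested genes 14.9% were called higher and 4.96% lower, so most genes of any list would not be called.

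Among the mutant libraries tsk-4 1 was the lowest for several of these genes. LURP1, PR1, PR2, AIG1, WAK1 and ACD6 all had their lowest mutant value there, which is 5 of the 6 called targets and the 1 called member, and so did SARD1. In the other lists this held for 2 of 4 mobile genes called higher, 1 of 2 regulators and 0 of 1 senescence genes. It also held for 1 of 1 metabolic and 1 of 1 jasmonate genes. Over all 2912 genes called higher tsk-4 1 was the lowest mutant library for 40.3%. The library held 14946295 reads, the most of the 6. PR1 spread the widest, with 2.03, 5.56 and 14.1 TPM in tsk-4 1, 2 and 3, while PCC1 lay between 10.5 and 11.02 TPM.

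**Figure D4:**
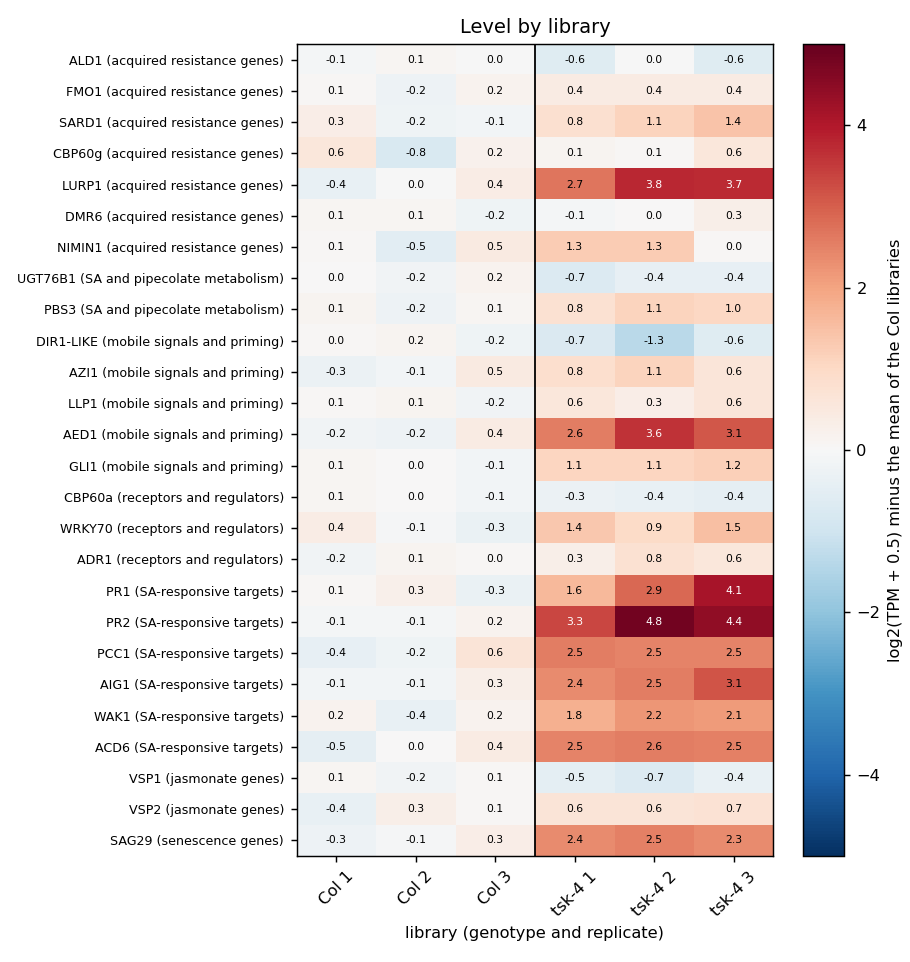
Log2(TPM + 0.5) minus the mean of the Col libraries, for the 7 genes and the called genes of the pathway lists, in each library; red is higher and blue lower than Col. LURP1 reads 2.7, 3.8 and 3.7 in tsk-4 1, 2 and 3, and DMR6 stays between -0.2 and 0.3 in all libraries.

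Lists from neighbouring pathways were read for comparison, beside 14.9% of all tested genes called higher and 4.96% called lower by limma. Of 7 early genes of pattern-triggered immunity 5 were tested and 0 were called by limma (1 had an unadjusted p under 0.05, and 0 were called by limma-voom). RBOHD, the oxidase of the oxidative burst, measured 31.1 ± 0.660 and 30.7 ± 1.86 TPM (limma adjusted p = 0.90), and WRKY33 14.0 ± 2.52 and 14.0 ± 0.346 TPM (adjusted p = 0.96). Of 9 jasmonate genes 6 were tested, and the vegetative storage protein genes moved apart. VSP2 rose from 20.4 ± 4.69 to 32.2 ± 1.09 TPM (adjusted p = 0.014, and 0.052 without tsk-4 3) and VSP1 fell from 21.2 ± 2.07 to 14.7 ± 1.78 TPM (adjusted p = 0.014, and 0.052 without Col 1). MYC2 was listed at 0, with 98.5% of its span overlapped by another gene. Of 6 senescence genes 4 were tested and 1 rose, SAG29, a sugar transporter of ageing leaves, from 34.3 ± 7.48 to 182 ± 12.5 TPM (adjusted p = 1.2e-05). SAG12, the classic marker of leaf senescence, was listed at 0 in all libraries.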

How the data were processed

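RNA-seq of 6 libraries (3 Col, 3 tsk-4, grouped by sample title) was read from the authors' deposited gene table. The authors deposited TPM values, each library summing to 1000000. The submitters' processing notes name fastp 0.20.1, HTSeq 0.11.2, HISAT2 and, at version 1.26.0, DESeq2, and give TAIR10 as the build. What each did, whether strand was used and how multi-mapped reads were treated is not stated there, so reads of overlapping and near-identical genes are uncertain. The tables of transposable elements were not used here.

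Of 33189 rows 33056 matched the TAIR10.1 annotation by identifier. TPM times the annotated gene span, introns included, and 1 constant per library gave whole reads within 0.02 for 100% of values above 0, so reads were recovered. Coordinates are 1-based, from TAIR10.1, whose gene spans fitted the deposited values.

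Genotypes were compared on log2(TPM + 0.5) with limma (3.58.1, R 4.3.3; trended variance), for genes with at least 1 TPM in at least 3 libraries. Benjamini-Hochberg adjustment ran over all tested genes, with calls under 0.05. Log2 changes (tsk-4 over Col) on that scale understate changes of low genes. limma-voom on recovered reads (at least 10 over the 6 libraries, median-ratio library sizes) and a fit without a filter reached the low genes. The filtered limma test and limma-voom were checked on simulated data in which only genes passing the filter were changed. The fit without a filter, and changes of genes under the filter, were not checked. Read ratios carry exact conditional binomial intervals, scaled by the reads of the gene table. Protein relatives were found with BLAST+ 2.17.0 on translated coding sequences. Scripts ran in Python 3.11.15 with SciPy 1.17.1, pandas 2.3.3, NumPy 2.4.6 and, for plots, matplotlib 3.10.9.

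The members and lists were chosen with earlier results of these data known. Named genes are up to 4 called ones per list by smallest adjusted p (where none was called, the 2 most abundant), beside the members, TSK, their protein relatives, their neighbours and the 5 genes most like their mean profile. Alternatives were scaling, pseudocount, filter, recovered reads, a replicate block and each library left out.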

Additional observations from a re-analysis of the deposited data

How the results depend on the processing

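LURP1 was called under each of the 22 alternatives that tested it, with log2 changes of 2.66 to 6.23 and adjusted p-values of 1.0e-04 to 0.016. SARD1 was called under all 8 that tested it (log2 1.11 to 3.11). Only limma-voom and the fit without a filter were planned among these. The rest were limma-voom with a library left out, added after seeing the data. DMR6 (26 alternatives, log2 -0.13 to 0.16), CBP60g (22, log2 -0.24 to 0.87), FMO1 (8) and NIMIN1 (6) were called in none of theirs and ALD1 in 1 of 8. The count of members called higher, 1 in the main test, was 0 with 1 TPM required in all 6 libraries, since LURP1 then fails the filter, 2 without a filter and 2 with limma-voom on reads. It was 0 to 1 with a library left out, being 0 without any 1 of the tsk-4 libraries because LURP1 again fails the filter. On the genes of the full test, added after seeing the data, it was 1 without each library, and limma-voom without each library, added likewise, gave 2 higher and 0 to 1 lower.

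The metabolism list had 1 gene higher, PBS3, and had 0 with 1 TPM in all 6, median-ratio scaling, a pseudocount of 0.1, quantile normalization and the replicate block, and 0 to 1 with a library left out, which gave 0 to 2 lower genes; the 1 without Col 3 was not PBS3. Mobile signals had 2 to 5 higher with a library left out. Regulators had 1 higher with median-ratio scaling, quantile normalization or no filter, and 1 to 3 higher and 0 to 1 lower with a library left out. SA-responsive targets had 3 higher with 1 TPM in all 6, where fewer genes were tested, and 3 to 7 with a library left out. Jasmonate genes had 2 higher with limma-voom or no filter, 2 lower with quantile normalization, and 0 to 1 in each direction with a library left out. Senescence genes had 1 lower with median-ratio scaling and 1 with quantile normalization. With any tsk-4 library left out, PBS3, AED1, PR1, PR2 and AIG1 failed the filter, so they could not be counted in their lists there. The cause of other changes was not tested. The median log2 change over all tested genes lay 0.10 lower with quantile normalization than in the main test. With a library left out 1783 to 3376 genes were called higher and 501 to 1162 lower.

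Whether same-numbered libraries share more than a number is not given in the labels. Their deviations from the genotype means correlated at 0.12, -0.09 and -0.11 across genes for replicates 1, 2 and 3. Differently numbered pairs gave -0.18 (Col 1 with tsk-4 2) to 0.25 (Col 3 with tsk-4 2). So few values cannot decide whether the libraries were paired. With the replicate block 1 member was called higher and 0 lower, LURP1 with an adjusted p of 0.00071, and 2310 higher and 750 lower genes were called against 2912 and 971. Depth limits ALD1, FMO1 and NIMIN1, which had 25, 20 and 14 reads over all libraries.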

Other observations

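The genes next to the members on the chromosomes were read for their own values. Both neighbours of LURP1 were listed at 0 in all 6 libraries, and GIP2 beside SARD1 was covered by 1 read. AT1G73810, 3093 bases from SARD1, was under the main filter, and limma-voom called it higher (27 reads in Col, 78 in tsk-4; log2 change 1.37 ± 0.43, adjusted p = 0.036), with every tsk-4 library above every Col library. LURP1 and PR1 lie 25707 bases apart on chromosome 2, and the gene between them with reads, PRB1 (AT2G14580), a basic relative of PR1, went the other way. PRB1 fell from 178 to 92 reads (limma adjusted p = 0.018), while LURP1 and PR1 rose; this stretch was chosen after its values were seen. XYP2 (AT2G13820), 1822 bases from ALD1, rose from 12.2 ± 1.82 to 16.7 ± 0.385 TPM (SD, n = 3; limma adjusted p = 0.027). AT1G19240, 29 bases from FMO1, measured 9.26 ± 1.22 and 9.33 ± 2.64 TPM (adjusted p = 0.97).

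The 5 genes whose profile over the 6 libraries was most like the mean standardized profile of the tested members LURP1, CBP60g and DMR6 were AT1G75810, NET1D (AT1G03080), SPHK2 (AT4G21534), MIM (AT5G61460) and AT3G19540, with Pearson r of 0.993, 0.987, 0.986, 0.985 and 0.985. None was called by limma, with adjusted p-values of 0.19 to 0.48. The 5 are the extremes of all tested genes outside the members, over only 6 libraries. Whether unrelated genes reach such values of r was not tested.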
